A study of Mus musculus with 6 samples.

Results

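MHC class II presentation was followed through 10 genes in visceral fat on a normal diet (ND) and on a high-fat diet (HFD): H2-Aa, H2-Ab1, H2-Eb1, Cd74, Ciita, H2-DMa, H2-DMb1, H2-Oa, Cd80 and Cd86. They were found by matching the Ensembl identifiers of the deposited counts to these symbols in GENCODE release M21, and they make up 10 of 54532 genes, with 1 identifier per symbol. All 10 had enough counts to be tested. RNA-Seq was performed on total RNA of whole epididymal fat, the fat pad next to the epididymis, with 3 libraries per diet. The mice were male C57BL/6J mice that received the ND (4.5% fat) or the HFD (60% fat) from 4 weeks of age for 16 weeks and no drug. The sources used here do not say whether a library held the RNA of 1 mouse or of several, so the p-values measure the spread between these libraries. The ND libraries held between 18142034 and 18859320 counts and the HFD libraries between 16996896 and 17763638.

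Cells that present antigen on MHC class II break up proteins they have taken in, and load the peptides on a pair of an alpha and a beta chain for CD4 T cells to read. The chains travel with the invariant chain, encoded by Cd74, until H2-DM exchanges its last fragment for a peptide, a step that H2-O slows. CIITA is the coactivator that switches on these genes together, and CD80 and CD86 give the T cell its second signal through CD28. Macrophages, dendritic cells and B cells carry class II in adipose tissue, and adipocytes have also been described with it. Whole fat holds all of these cells, and in bulk RNA fewer cells of a type and less RNA per cell cannot be told apart.

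Of the 10 genes 3 passed the test. Ciita, H2-DMb1 and Cd80 rose on HFD, by 1.74-, 2.07- and 2.75-fold, and none fell. The classical chains H2-Aa, H2-Ab1 and H2-Eb1 and the invariant chain Cd74 were between 1.46- and 1.63-fold higher with no overlap between the diets, but their adjusted p-values lay between 0.0654 and 0.135. H2-DMa and Cd86 overlapped between the diets. The test was edgeR's quasi-likelihood test with Benjamini-Hochberg adjustment over 15751 genes and a threshold of 0.05, and it called 15.9% of those genes, 9.85% higher on HFD and 6.04% lower. All 10 log2 fold changes were above 0, with a median of 0.69 against 0.007 over all genes tested. In 8 of the 10 genes every HFD library lay above every ND library, which held for 21.9% of all genes tested, and in none did every HFD library lie below, which held for 19% (40.9% in either direction). Values of a gene are given below in the order of replicates 1, 2 and 3, as CPM, the count scaled to a common library size.

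**Figure D1:**
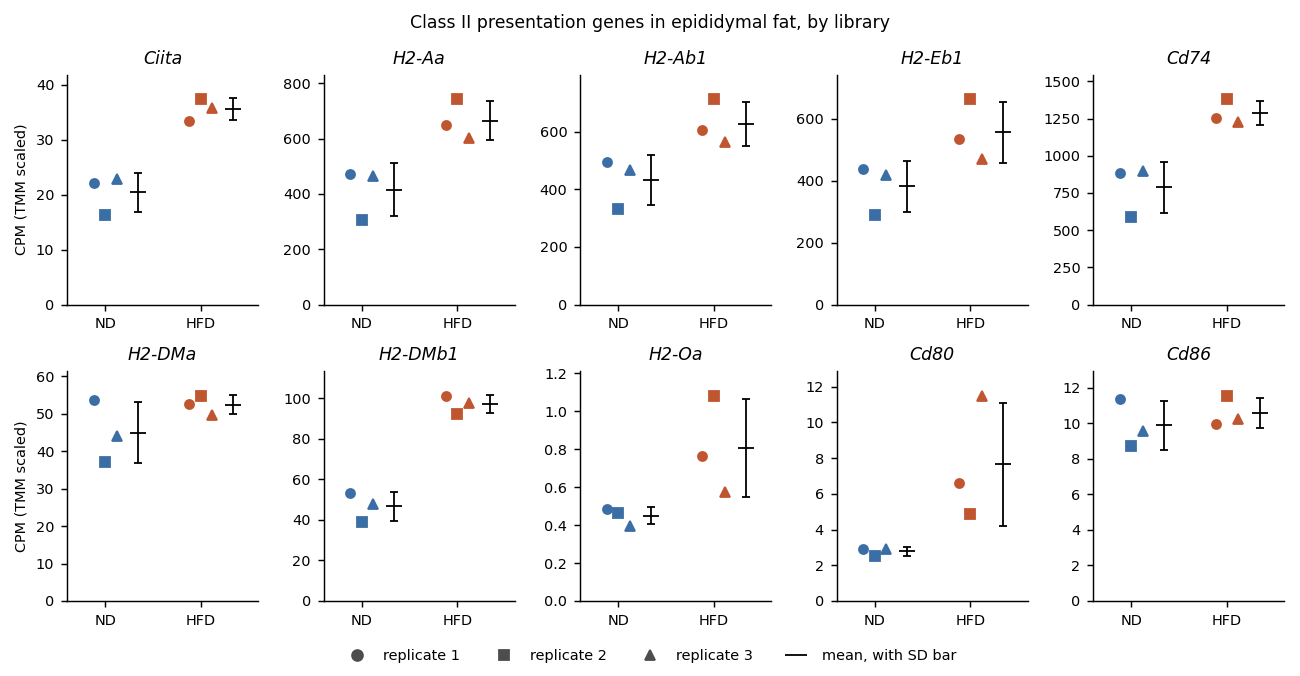
CPM (counts scaled to a common library size with TMM factors, vertical axis from 0) of the 10 class II presentation genes in each library of epididymal fat on ND (blue) and HFD (orange), with the symbol showing the replicate and the black bar the mean ± SD of 3 libraries. The diets overlap in the panels of H2-DMa and Cd86, and H2-DMb1 goes from 46.8 CPM on ND to 97.2 CPM on HFD.

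Ciita (ENSMUSG00000022504), the master switch of the pathway, lies on chromosome 16 (10480059 to 10528418, plus strand, GRCm38). It measured 22.1, 16.2 and 22.8 CPM with ND against 33.4, 37.4 and 35.8 CPM with HFD. The lowest HFD library was above the highest ND library. The mean went from 20.4 ± 3.62 to 35.5 ± 2.0 CPM (SD, n = 3 per diet), a log2 fold change of 0.80 (SE 0.16, edgeR adjusted p = 0.0186). Leaving out 1 library ended this call for ND replicate 1 (adjusted p = 0.0622), ND replicate 2 (0.0515) or HFD replicate 1 (0.076). Exons of Ciita share 329 bases with Dexi on the other strand, and whether reads were counted by strand is not given in the sources used here.

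The classical chains form the dimers that hold the peptide: H2-Aa encodes the alpha and H2-Ab1 the beta chain of H2-A, and H2-Eb1 the beta chain of H2-E. Their genes sit within a short stretch of chromosome 17, H2-Ab1 at 34257689 to 34269419 (plus strand), H2-Aa at 34282744 to 34287823 (minus strand) and H2-Eb1 at 34305867 to 34316674 (plus strand). H2-Ea-ps, the alpha chain gene of H2-E that C57BL/6 mice are known not to express, was at 0 counts in all 6 libraries, which allows up to 3 counts in each.

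H2-Aa measured 474, 304.5 and 466 CPM in the ND group against 651, 743 and 604 CPM in the HFD libraries. H2-Ab1 measured 493, 332 and 467 CPM with ND against 605, 713 and 565 CPM with HFD. H2-Eb1 measured 437, 288 and 420 CPM with ND against 534, 664 and 471 CPM with HFD. The pattern was the same in the 3 genes: ND replicate 2 was lowest of all, HFD replicate 2 was highest of all, and HFD replicate 3 was the lowest of the HFD libraries. The log2 fold change was 0.68 for H2-Aa (SE 0.22), 0.54 for H2-Ab1 (SE 0.20) and 0.54 for H2-Eb1 (SE 0.22), and the edgeR adjusted p was 0.0715, 0.111 and 0.135. The ratio of H2-Aa to H2-Ab1 CPM within a library was between 0.918 and 0.998 on ND and between 1.04 and 1.08 on HFD, so the HFD values lay above the ND values without overlap.

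Cd74 was the most abundant of the 10. It measured 881, 590 and 894.5 CPM with ND against 1251, 1380 and 1228 CPM with HFD, and again ND replicate 2 was lowest and HFD replicate 2 highest. The mean went from 789 ± 172 to 1286 ± 82.1 CPM (SD, n = 3 per diet), a log2 fold change of 0.70 (SE 0.22, edgeR adjusted p = 0.0654). Under DESeq2's Wald test Cd74 (adjusted p = 0.00515) and H2-Aa (0.0142) also passed, which brought the count to 5 of the 10. Over all genes that test called 3629 of 28368, against 2504 of 15751 with edgeR. The count was 1 of 10, H2-DMb1 alone, without ND replicate 1, without ND replicate 2 or without HFD replicate 1. Over all genes these runs called 492 of 16207, 591 of 16270 and 474 of 16194, so fewer genes passed in general.

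Class II promoters are known to share a block of motifs, the X and Y boxes among them. In RefSeq's promoter table (GRCm38.p6) the 250 bases before RefSeq's start site were searched for H2-Aa, H2-Eb1, H2-DMa, H2-DMb1, H2-Oa and Cd80. The table held no window for Ciita, H2-Ab1 and Cd86, and Cd74 was not searched. The 120 bases before the start are shown for the alpha chain of H2-A (chr17:34287824-34287943, minus strand) and the beta chain of H2-E (chr17:34305747-34305866, plus strand), 5′ to 3′, because these boxes are where the factors that CIITA joins are known to bind. Capitals mark the Y box core ATTGG and the X box core AGNNACNGA, which is cut from a longer motif.
H2-Aa: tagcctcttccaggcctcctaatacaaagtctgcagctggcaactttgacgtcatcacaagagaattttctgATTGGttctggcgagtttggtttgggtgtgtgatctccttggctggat
H2-Eb1: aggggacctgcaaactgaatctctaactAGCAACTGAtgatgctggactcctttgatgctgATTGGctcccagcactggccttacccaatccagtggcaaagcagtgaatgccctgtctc
Both hold ATTGG on the coding strand shortly before the start, at 48 bases in H2-Aa and 59 bases in H2-Eb1 (first base of the motif). On either strand, ATTGG is in 33.8% and AGNNACNGA in 14.7% of the 32851 promoter windows of 250 bases in the table, so each alone is common. The X box core followed by ATTGG on the same strand after a gap of 10 to 30 bases is in 0.0913% of them. Among those of the 10 genes that were searched, it is in the windows of H2-Eb1 (gap of 24 bases) and H2-DMb1 (gap of 25 bases). In the H2-Oa window the core AGNNACNGA lay 89 bases before ATTGG, outside that range, and the H2-DMa windows held ATTGG 198 bases before 1 of 2 start sites and no X box core. In the window of the costimulator gene Cd80 neither motif was found. No match says only that these letters are not in the window.

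Levels between genes were compared on the deposited FPKM, which divides by gene length. On ND the order was Cd74 (568 ± 122 FPKM, SD, n = 3), H2-Eb1 (328 ± 69.0), H2-Ab1 (267 ± 53.3), H2-Aa (225 ± 51.3), H2-DMb1 (32.0 ± 4.90), H2-DMa (27.9 ± 5.13), Cd86 (2.74 ± 0.385), Ciita (2.17 ± 0.378), Cd80 (0.763 ± 0.0657) and H2-Oa (0.348 ± 0.0373). Neighbours whose libraries overlapped were H2-Eb1 with H2-Ab1, H2-Ab1 with H2-Aa, and H2-DMb1 with H2-DMa, although within each library the first of each pair was higher. On HFD the order was the same except that Ciita (3.75 ± 0.211 FPKM) stood above Cd86 (2.90 ± 0.239), which then overlapped Cd80 (2.08 ± 0.929). The lengths implied by these FPKM values ran from 47.2% (H2-DMa) and 49% (H2-Aa) to 99.2% (Ciita, Cd80 and Cd86) of the exon length in GENCODE M21, so the level of H2-Aa and H2-DMa beside the others depends on the gene model.

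**Figure D2:**
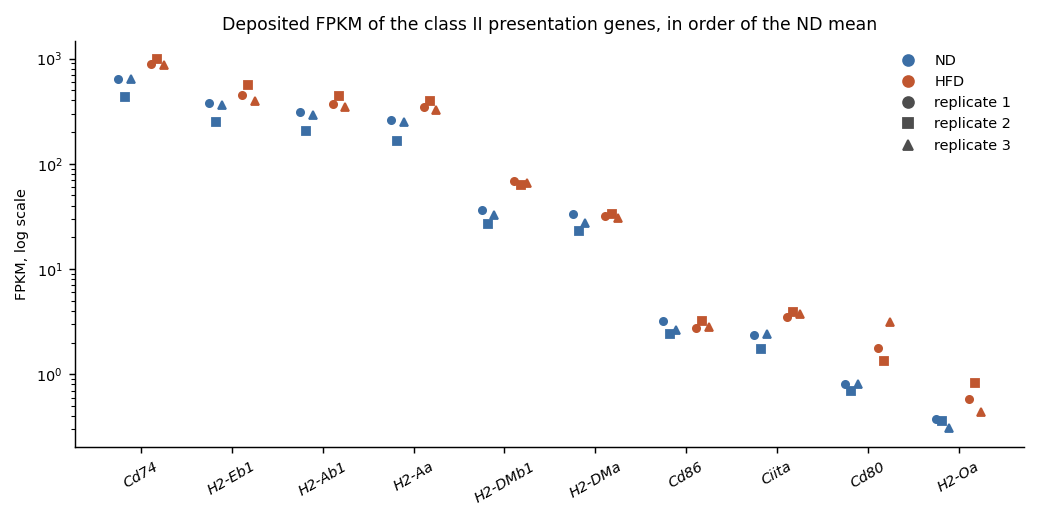
Deposited FPKM (vertical axis, log scale) of the 10 genes in order of the ND mean, with ND libraries in blue and HFD libraries in orange and the symbol showing the replicate. Cd74 and the classical chains lie above 165 FPKM, the H2-DM genes between 23.2 and 68.7 FPKM, and Ciita, Cd86, Cd80 and H2-Oa below 4.

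H2-DM, the peptide editor, is a dimer of an alpha chain (H2-DMa) and a beta chain that mice encode in 2 neighbouring copies, H2-DMb1 (ENSMUSG00000079547, 34153072 to 34160230 on chromosome 17, plus strand) and H2-DMb2 (34143307 to 34151555). H2-DMa measured 53.6, 37.2 and 44.1 CPM with ND against 52.5, 54.9 and 49.8 CPM with HFD. The diets overlapped, and the log2 fold change was 0.22 (SE 0.15, edgeR adjusted p = 0.343). H2-DMb1 measured 53.4, 39.2 and 47.8 CPM with ND against 101, 92.5 and 97.6 CPM with HFD. The HFD libraries were close together and all lay far above the ND libraries, with a log2 fold change of 1.05 (SE 0.14, edgeR adjusted p = 0.00740). This was the firmest of the 10 results: it passed in all 15 other settings tried (test, scaling, filter, unit, block or a library left out), with adjusted p-values up to 0.0438. The ratio of H2-DMb1 to H2-DMa CPM, also not among the ratios planned, was 0.996, 1.05 and 1.08 in the ND group against 1.93, 1.69 and 1.96 in the HFD libraries, without overlap. H2-DMa shares 360 exon bases with Brd2 on the other strand.

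H2-DMb2, which is not among the 10 genes, moved the other way. It measured 9.27, 7.07 and 7.76 CPM with ND against 3.66, 2.71 and 1.50 CPM with HFD. Every HFD library was below every ND library, and the gene fell by 1.61 on the log2 scale (SE 0.34, edgeR adjusted p = 0.0234). Without ND replicate 1, 2 or 3 or HFD replicate 1 its adjusted p rose to 0.0897, 0.0701, 0.0614 and 0.0523. H2-DMb2 made up 14.8%, 15.3% and 14.0% of the H2-DMb1 and H2-DMb2 counts together in the ND group against 3.48%, 2.84% and 1.51% in the HFD libraries.

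The copies are near-identical where they align. How reads that fit both were counted is not given in the sources used here, so the split between the copies is uncertain. Their longest protein-coding transcripts in GENCODE M21, of 1404 (H2-DMb1) and 1483 bases (H2-DMb2), were identical at 95.5% of 1058 aligned bases. Of the 50-base words of the H2-DMb1 transcript 27.2% also occur in H2-DMb2, and of its 100-base words 13.7%. With the counts of both in 1 row, a setting chosen after seeing the data, the beta chain rose from 54.8 ± 8.26 to 99.8 ± 4.98 CPM (SD, n = 3 per diet), a log2 fold change of 0.86 (SE 0.14, edgeR adjusted p = 0.0111). The copies were also compared before RefSeq's start sites, in stretches that overlap exons of the same genes in GENCODE M21. The 30 bases ending at the H2-DMb1 X box core (chr17:34153075-34153104, plus strand) and the 30 bases at the same place of H2-DMb2 (chr17:34145104-34145133, plus strand) are shown 5′ to 3′ with the X box core in capitals where it was found.
H2-DMb1: tgggcacaatgaggtttacctAGTAACTGA
H2-DMb2: agggcacaatgaggtttacctattaaccga
The stretches differ at 3 of 30 bases, and the H2-DMb2 window held no AGNNACNGA on either strand. Both windows held ATTGG, 61 bases before RefSeq's H2-DMb1 start and 90 bases before its H2-DMb2 start.

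**Figure D3:**
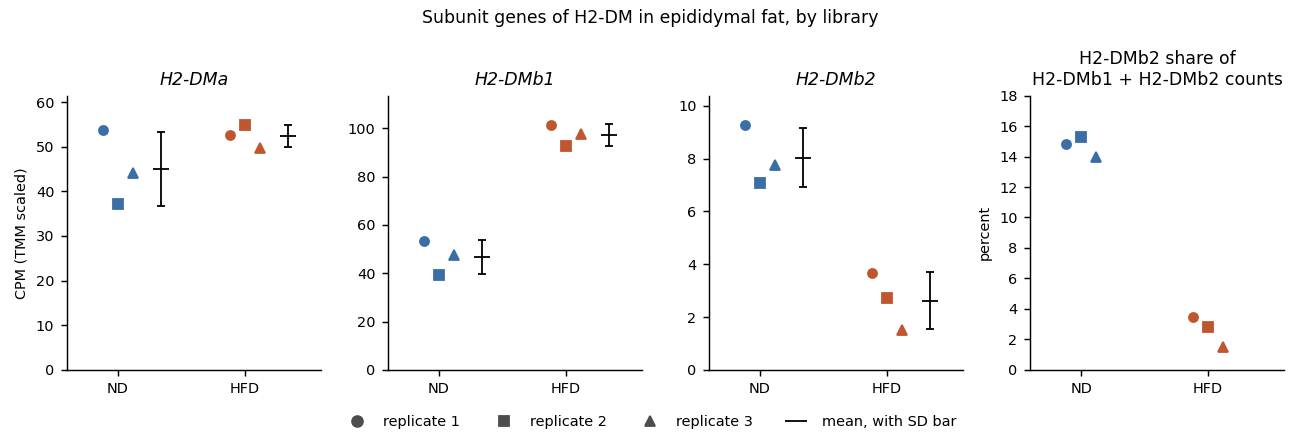
CPM (TMM scaled, axes from 0) of H2-DMa, H2-DMb1 and H2-DMb2 in each library, with mean ± SD of 3 libraries, and in the last panel the percent of the H2-DMb1 and H2-DMb2 counts that fell on H2-DMb2. H2-DMb1 is higher and H2-DMb2 lower in every HFD library, and the share goes from between 14.0% and 15.3% to between 1.51% and 3.48%.

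H2-O, the modulator of H2-DM, is known mainly from B cells and had low counts. H2-Oa, its alpha chain, had 9, 8 and 8 counts in the ND group against 14, 18 and 10 in the HFD libraries, where 3 counts, used as the floor, correspond to between 0.149 and 0.18 CPM, a limit that covers counting error only. The HFD counts were all higher, but the log2 fold change of 0.84 (SE 0.41) had an edgeR adjusted p of 0.195, and the gene shares 321 exon bases with BC051537 on the other strand. H2-Ob, the beta chain, measured 3.83, 4.75 and 4.13 CPM with ND against 4.64, 2.23 and 3.57 CPM with HFD, with overlap and a log2 fold change of -0.28 (SE 0.32, edgeR adjusted p = 0.572). H2-Eb2, a second beta chain gene of H2-E, had 3, 3 and 6 counts with ND against 15, 9 and 11 with HFD and was too low to be tested.

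Cd80 (ENSMUSG00000075122) and Cd86 encode the ligands of CD28 and lie on chromosome 16 (38455561 to 38496335, plus strand, and 36603869 to 36666081, minus strand). Cd80 measured 2.91, 2.49 and 2.94 CPM with ND against 6.60, 4.87 and 11.5 CPM with HFD. The ND libraries were close together, while the HFD libraries spread from 4.87 CPM in replicate 2 to 11.5 CPM in replicate 3, the libraries where the classical chains were highest and lowest of that group. The log2 fold change was 1.46 (SE 0.35, edgeR adjusted p = 0.0327), the largest of the 10 genes. This call was the least firm of the 3: it held in only 1 of 6 runs that left out a library, without HFD replicate 2 (adjusted p = 0.0107), and the adjusted p was 0.105, 0.108, 0.0841, 0.0953 and 0.0575 without ND replicate 1, 2 or 3 or HFD replicate 1 or 3.

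Cd86 measured 11.4, 8.69 and 9.55 CPM with ND against 9.93, 11.6 and 10.2 CPM with HFD. The diets overlapped and the log2 fold change was 0.10 (SE 0.17, edgeR adjusted p = 0.732). The ratio of Cd86 to Cd80 CPM within a library was 3.91, 3.49 and 3.25 with ND against 1.50, 2.37 and 0.890 with HFD, so that Cd86 exceeded Cd80 in all ND libraries and in 2 of 3 HFD libraries. With 3 libraries per diet the smallest p that an exact permutation test of a ratio allows is 0.1, and the ratios were left untested.

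The genes around these 10 were counted in lists. The antigen and invariant chain processing list had the highest median: 9 of its 10 genes rose and March8 (log2 fold change 0.02, edgeR adjusted p = 0.918) did not pass, with a median log2 fold change of 1.76. Ctss, the protease that trims the invariant chain, measured 112, 88.1 and 95.4 CPM with ND against 1009, 783.5 and 1854 CPM with HFD, a 12.3-fold difference (log2 fold change 3.62, SE 0.36, edgeR adjusted p = 0.00448). Among the HFD libraries replicate 3 was highest and replicate 2 lowest. Lgmn, a lysosomal endopeptidase, rose by 2.53 on the log2 scale (edgeR adjusted p = 0.00925), Ifi30, which reduces disulphide bonds of antigens, by 2.43 (0.0105) and Ctsz, a cathepsin, by 2.06 (0.00789). Ctsd (1.79), Ctsl (1.72), Ctsb (1.72), March1 (1.34) and Sppl2a (0.44) also passed. The number of calls in this list was 2 without ND replicate 1, 3 without ND replicate 2, and 5 without ND replicate 3 or without HFD replicate 1.

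Of the 17 class II gene regulators 16 were tested, 4 rose and none fell, with a median log2 fold change of 0.008. Spi1, which encodes the myeloid factor PU.1, measured 35.5, 32.1 and 32.8 CPM with ND against 166, 94.0 and 299 CPM with HFD, a log2 fold change of 2.48 (SE 0.39, edgeR adjusted p = 0.0112). Irf8, a factor of myeloid cells, rose by 1.48 (edgeR adjusted p = 0.0120), Ifngr2, a chain of the interferon gamma receptor, by 1.11 (0.0119), and Nfya, a subunit of the complex that binds the Y box, was 1.99-fold higher (0.0382). The other subunits of that Y box complex, Nfyb (-0.14) and Nfyc (-0.16), overlapped between the diets and did not pass. The subunits of the RFX complex, which binds the X box, did not pass: Rfx5, Rfxap and Rfxank had log2 fold changes of -0.38, 0.03 and -0.30. Ifng, the cytokine that acts through this receptor, was too low to be tested. None of the 4 calls was left without ND replicate 1 or without ND replicate 2.

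Of the 8 other costimulators 5 were tested and 1 rose. Cd83, which keeps class II and CD86 on the cell surface, measured 15.6, 16.9 and 15.8 CPM with ND against 68.0, 46.1 and 90.8 CPM with HFD, a log2 fold change of 2.08 (SE 0.24, edgeR adjusted p = 0.00624). Tnfsf9 (0.90), Cd40 (0.51), Icosl (0.27) and Cd274 (-0.12) did not pass, and Pdcd1lg2, Tnfsf4 and Cd70 were too low to be tested. On the T cell side of the contact 7 of 10 genes were tested and none passed by edgeR's quasi-likelihood test or DESeq2, with 2 at an unadjusted edgeR p under 0.05. Cd28, the receptor of both costimulators, measured between 1.10 and 1.94 CPM on ND and between 2.10 and 4.83 CPM on HFD, without overlap (log2 fold change 1.19, SE 0.40, edgeR adjusted p = 0.0850). Lag3, which binds class II, went the other way without overlap (log2 fold change -0.66, SE 0.23, edgeR adjusted p = 0.0913). Cd3e (1.02) and Icos (0.52) did not pass. The other CD3 chains Cd3d (-0.205) and Cd3g (-0.202), and Cd4 (0.12), overlapped between the diets and did not pass either. Ctla4, Cd40lg and Foxp3 were too low to be tested.

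**Figure D4:**
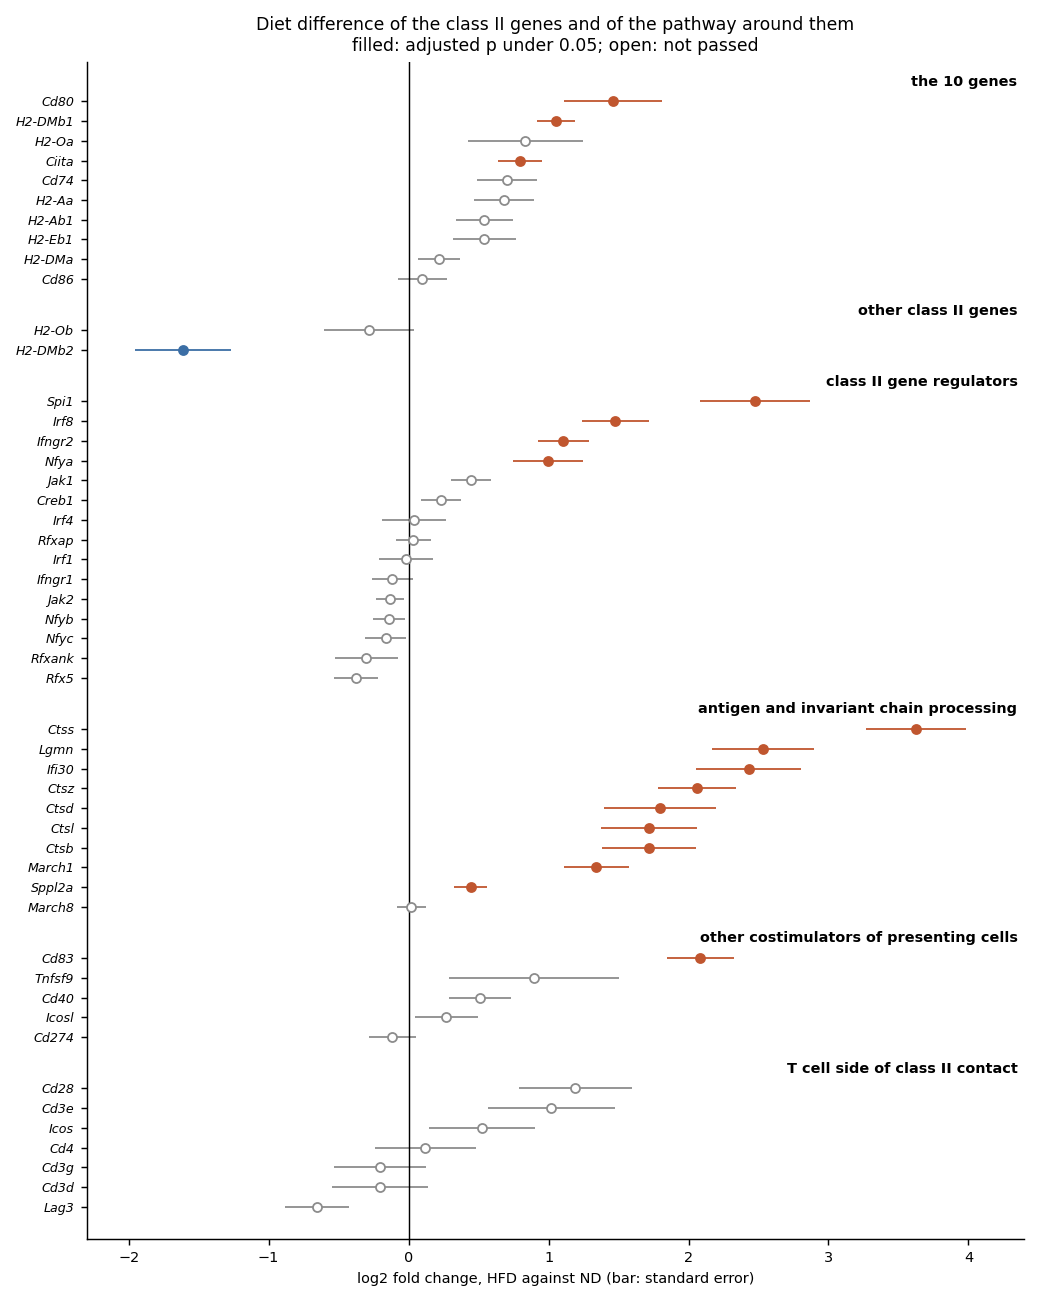
Log2 fold change of HFD against ND (horizontal axis, bar ± SE) from edgeR for the 10 class II presentation genes and for tested genes of the 5 lists around them (1 regulator is not shown), filled where the adjusted p was under 0.05. The 10 genes lie between 0.10 and 1.46, below most of the processing genes, whose highest is Ctss at 3.62, and H2-DMb2 at -1.61 is the lowest point.

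The cells that carry class II were followed by their markers. Of 10 macrophage markers 9 rose and Mertk (log2 fold change -0.02) did not pass, with a median log2 fold change of 1.65. Cd68 rose by 3.72, Adgre1 by 2.91, Itgam by 1.98 and Lyz2 by 1.78, with edgeR adjusted p-values of 0.00642, 0.00583, 0.0243 and 0.0191. None of the 10 was at 0 counts in any library, and the summed marker CPM was 1846, 1790 and 1731 in the ND group against 4953, 3871 and 8469 in the HFD libraries. Lyz2 was the largest part of this sum, with 942, 896 and 866 CPM on ND against 2444, 2018 and 4840 CPM on HFD. The count of 9 was 3 without ND replicate 1, without ND replicate 2 or without HFD replicate 1, and 5 without ND replicate 3.

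The class II genes and the macrophage markers did not line up within the HFD group. The CPM of H2-Aa, H2-Ab1, H2-Eb1 and Cd74 together was 2285, 1515 and 2248 with ND against 3041, 3500 and 2868 with HFD. HFD replicate 3 had the most macrophage marker RNA and the least class II RNA of the HFD libraries, and HFD replicate 2 the reverse. The ratio of the class II sum to the macrophage marker sum was 1.24, 0.846 and 1.30 with ND against 0.614, 0.904 and 0.339 with HFD. Its mean went from 1.13 ± 0.246 to 0.619 ± 0.283 (SD, n = 3 per diet), and the diets overlapped, since ND replicate 2 lay below HFD replicate 2. Cd80, Spi1, Ctss and Cd83 had the order of the macrophage markers within the HFD group, replicate 3 highest and replicate 2 lowest. The part of macrophage content in the diet difference of the 10 genes was not tested.

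**Figure D5:**
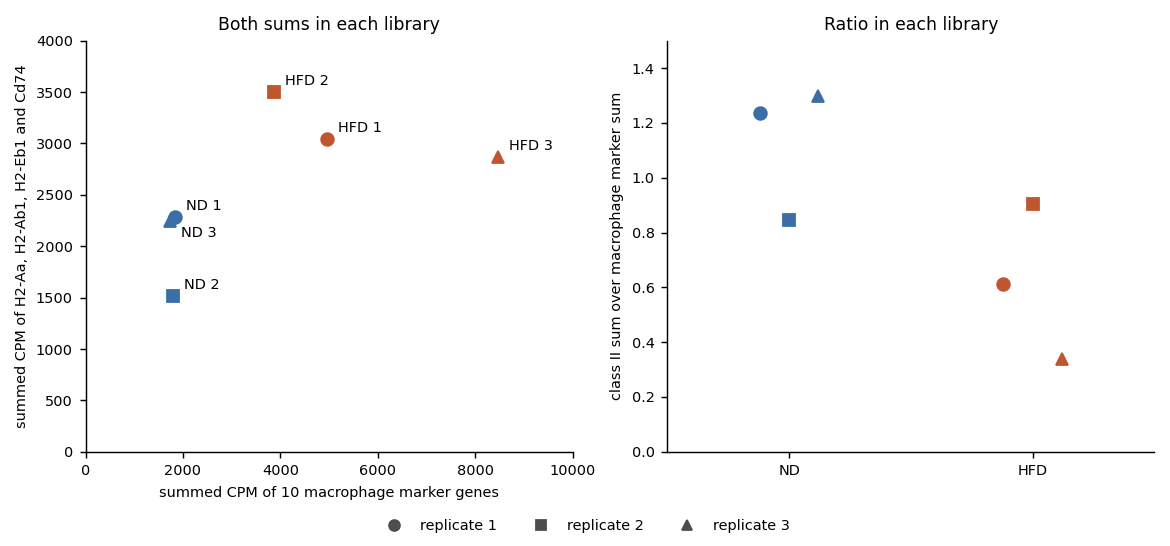
Left, summed CPM of H2-Aa, H2-Ab1, H2-Eb1 and Cd74 (vertical axis) against summed CPM of the 10 macrophage markers (horizontal axis) in each library. Right, the ratio of these sums by diet, between 0.846 and 1.30 on ND and between 0.339 and 0.904 on HFD.

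Markers of the other cells that carry class II were counted too, beside the 9.85% of all genes tested that were called higher on HFD. Of 8 dendritic cell markers 1 rose, Ccr7, the receptor that leads these cells to lymph nodes (log2 fold change 1.68, edgeR adjusted p = 0.0314), and this call was lost without any 1 of the libraries except HFD replicate 2. Siglech (-1.03), Xcr1 (-0.72) and Zbtb46 (-0.43) were lower in every HFD library and did not pass. Batf3 (0.415) was higher in every HFD library and did not pass. Flt3 (0.376), Clec9a (0.348) and Cd209a (-0.185) overlapped between the diets and did not pass. The summed dendritic cell markers ranged from 49.5 to 59.6 CPM on ND and from 48.5 to 57.0 CPM on HFD. Of 9 B cell markers 1 rose, Cd22 (log2 fold change 2.43, edgeR adjusted p = 0.0258), a call lost without ND replicate 1, ND replicate 3 or HFD replicate 1. Cr2 (0.74), Ms4a1 (0.39) and Blk (0.38) did not pass, and the B cell sums ranged from 8.26 to 26.1 CPM on ND and from 19.2 to 36.3 CPM on HFD, with overlap. No dendritic cell or B cell marker was at 0 counts in any library.

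Of 9 adipocyte markers 2 fell, Cfd by 3.42 and Retn by 2.05 on the log2 scale (edgeR adjusted p = 0.0396 and 0.0378), and both calls were lost without ND replicate 1, 2 or 3 or HFD replicate 1, while 5 passed without HFD replicate 2. Plin1 (-0.79) and Pnpla2 (-0.78) did not pass. Pparg (-0.63), Lipe (-0.52), Adipoq (-0.515), Fabp4 (-0.24) and Cidec (-0.08) overlapped between the diets and did not pass either. The adipocyte sum was 39160, 43860 and 33850 CPM with ND against 18920, 29360 and 11660 CPM with HFD. Its largest parts on ND were Cfd, whose mean went from 13600 to 1274 CPM, and Fabp4, from 12400 to 10480 CPM. Within the HFD group this sum had the order of the class II sum, replicate 2 highest and replicate 3 lowest. On ND, replicate 2 had the highest adipocyte sum and the lowest class II sum (1515 CPM). Every HFD library had a lower adipocyte sum and a higher class II sum than every ND library. ND replicate 3 stood apart in 1 respect: 6 epithelial markers summed to 177 CPM there and to at most 3.77 CPM in any other library. Its class II values lay near those of ND replicate 1, and without it H2-DMb1 kept its call (adjusted p = 0.0364), Ciita kept its call (0.0479) and Cd80 lost it.

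Outside the 10 genes, the profiles over the 6 libraries most like the mean of H2-Aa, H2-Ab1, H2-Eb1 and Cd74 were those of Serping1, a complement inhibitor, Txndc16, a thioredoxin domain protein, Capn5, a calpain, Hps1, which acts in the biogenesis of lysosome-related organelles, and Gmfg, an actin regulator of blood cells, among 10645 genes with an average log2 CPM of at least 3. Their root-mean-square differences from that mean profile were 0.091, 0.098, 0.105, 0.119 and 0.122 on the log2 scale after centring each gene. Of these 5, Serping1 (log2 fold change 0.80, edgeR adjusted p = 0.0352) and Hps1 (0.61, 0.0231) passed the test. Ciita was at 0.127, with 7 of the 10645 genes nearer. H2-DMa was at 0.231, H2-DMb1 at 0.261 and Cd86 at 0.298. Cd80 was at 0.582, with 8014 of the 10645 genes nearer.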

How the data were processed

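RNA of epididymal fat was sequenced in 3 libraries of ND-fed and 3 of HFD-fed mice, grouped by the diet in the labels. The authors deposited raw counts per gene without normalization, and the same genes as FPKM, fragments scaled by gene length and library size. The paper names GRCm38 with TopHat and Cufflinks, while the submitters' processing notes name HISAT2 2.0.5, featureCounts 1.5.0-p3 and a human build, although the identifiers are those of mouse genes. Which tool made the counts, its strand setting and its rule for reads that fit several genes could change the values of overlapping genes and of copies that share sequence. Symbols, coordinates and exons came from GENCODE M21 (GRCm38.p6), in which 54495 identifiers were found, and promoter sequences from RefSeq.

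Counts were tested with edgeR 4.0.16 (R 4.3.3; TMM, filterByExpr, glmQLFit with robust=TRUE, diet as the only factor), with Benjamini-Hochberg adjustment over 15751 genes. CPM uses TMM-scaled count totals, and SE was derived from the F statistic. Tried instead were the Wald test of DESeq2 1.42.0, voom in limma 3.58.1, scaling by DESeq2's size factors or by count totals only, no filter, blocking on replicate number, omission of each library, and limma on log2(FPKM + 1) or log2(FPKM + 0.1), keeping genes that reached an FPKM of 0.5 in 3 libraries, or with all genes for the former. Fold changes from log2(FPKM + 1) understate those of low genes. No 2 libraries agreed within sampling noise, the lowest chi-square per gene being 19. The edgeR test, the DESeq2 Wald test and limma-voom were tried on simulated counts, and the other settings were not. The 10 genes, the lists and the alternatives were chosen with earlier results of these data known. All 10 genes were named, and from each list up to 4 genes, those past the threshold first and then by the size of the log2 fold change. Genes of a list named beyond these were chosen after their values were seen. Genes too low to be tested were also named. The values of 1 regulator are not reported here.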

Additional observations from a re-analysis of the deposited data

How the results depend on the processing

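All 10 genes kept a positive log2 fold change wherever they were tested, in 15 alternatives for 9 of them and in 13 for H2-Oa, which the FPKM filter removed, and H2-DMb1 passed in 15, Ciita in 11, Cd80 in 7, and Cd74 and H2-Aa in 1 each. The 3 calls became 5 with DESeq2 and 1 with limma on unfiltered log2(FPKM + 1), and between 1 and 3 with 1 library left out. That unfiltered FPKM setting gave 0 other class II genes in place of 1, 1 regulator in place of 4, 4 processing genes in place of 9, 5 macrophage markers in place of 9, and 0 dendritic cell, B cell and adipocyte markers in place of 1, 1 and 2. The adipocyte count was 4 with DESeq2, 1 with limma-voom and 0 without the filter. With 1 library left out the counts ranged from 0 to 1 for other class II genes, 0 to 4 for regulators, 2 to 9 for processing genes, 0 to 1 for the T cell side, where 1 gene passed without HFD replicate 2, 3 to 9 for macrophage markers, 0 to 1 for dendritic cell and B cell markers and 0 to 5 for adipocyte markers. Over all genes the number called ranged from 474 without HFD replicate 1 to 3940 without HFD replicate 2, was 3629 with DESeq2 and 649 with unfiltered FPKM, against 2504 with edgeR. The causes were not tested.

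Same-numbered libraries come from different mice, and the correlations of their deviations from the diet means were -0.0858, -0.0556 and -0.00526, so they were not paired. In the fit with a replicate block 1886 genes passed, Cd80 did not (adjusted p = 0.0504), leaving 2 of the 10, and the dendritic cell and B cell counts were 0. Direction turned in 3 named genes outside the 10, none of which had passed: Cr2, between -0.25 without HFD replicate 1 and 1.21, Ms4a1, between -0.30 without HFD replicate 1 and 1.13, and Ccdc39, between -0.83 and 0.56 without ND replicate 3. From FPKM, the mean ratio of the class II sum to the macrophage marker sum (1.09 on ND and 0.602 on HFD) and that of Cd86 to Cd80 (3.59 and 1.61) moved by less than the SD between replicates. The mean ratios of H2-Aa to H2-Ab1 (0.838 and 0.928) and H2-DMb1 to H2-DMa (1.15 and 2.05) moved by more, since FPKM divides by gene length, and were still higher on HFD.

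Depth limits H2-Oa and H2-Eb2, each below 20 counts in every library. The 3 libraries per diet limit the calls near the threshold, and the strand and the treatment of shared reads limit Ciita, H2-DMa, H2-Oa, H2-DMb1 and H2-DMb2.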
